A study of Mus musculus with 8 samples.

Results

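The mitochondrial ribosomal protein genes, those with symbols starting Mrpl (large subunit) or Mrps (small subunit) and a number, were followed in the brains of mice labelled as lacking tumour necrosis factor (TNF) and of wild-type mice. On the array 77 such genes had a probe set that pairs with 1 symbol, 48 of the large and 29 of the small subunit, among 19938 genes with a symbol. Where a gene had several probe sets, the one with the highest mean over the 8 arrays was used; 1 further probe set that pairs with 2 symbols, one of them Mrpl53, was left out. RNA came from brain lysates of adult males aged 2 to 4 months: 4 biological replicates labelled TNF-/- and 4 labelled TNF+/+, the wild type, which the labels give as C57BL/6. The background strain of the TNF-/- mice, the allele and the deleted part are not given in the sources used here, and the design text speaks of a deficiency present through development. One Affymetrix Mouse Gene 1.0 ST array was used per replicate. This platform measures transcripts with many short probes, and the values are the authors' log2 signals of 35556 probe sets.

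Mitochondria carry their own ribosomes, which make the few respiratory chain proteins that mitochondrial DNA encodes. Their RNA comes from that DNA, but every one of their proteins is encoded in the nucleus, made in the cytosol and imported. The large subunit joins amino acids and passes the new chain through its exit tunnel to the inner membrane, while the small subunit binds messenger RNA and decodes it. In brain, whose neurons depend on oxidative phosphorylation, inherited defects of several of these proteins cause encephalopathies such as Leigh syndrome in humans.

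The targeted gene was brighter where the labels say it is missing. Tnf had a log2 signal of 5.67, 5.87, 5.92 and 6.21 in the arrays labelled TNF-/-, against 4.48, 4.93, 4.24 and 4.47 in those labelled TNF+/+. These differ by 1.39 ± 0.16 (SE; limma, adjusted p = 0.0278; exact two-sided permutation p = 0.0286, the smallest that 4 against 4 can give). The difference did not pass in 7 of 8 fits with 1 array left out (limma, adjusted p = 0.0321 to 0.114 over the 8), without TNF+/+ arrays 3 and 4 (adjusted p = 0.216) or with the replicate number as a block (adjusted p = 0.129). The positions of its probes are not given in the sources used here. Probes that lie outside the deletion would not test the labels, so every direction below is that of arrays as labelled. Array medians lay between 5.03 and 5.11, the number of arrays limits the precision, and TNF+/+ arrays 3 and 4 stood apart on the first principal component. Neuronal markers averaged 10.9 in each group and liver markers 3.72 in the TNF-/- and 3.77 in the TNF+/+ arrays, below the array medians. TNF+/+ array 1 carried cerebellar granule cell markers at a list mean of 7.89, against 6.13 to 6.23 in the TNF-/- arrays and 6.02 to 6.15 in the other TNF+/+ arrays.

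The mean of neither subunit differed between the labels by more than the spread between arrays. The mean of the 48 large-subunit genes was 7.01, 6.999, 7.14 and 7.14 in the TNF-/- arrays, against 6.95, 7.03, 7.10 and 7.21 in the TNF+/+ arrays. The difference of these means was -0.0021 ± 0.067 (SE, n = 4 arrays each), beside an SD between arrays of 0.077 for TNF-/- and 0.111 for TNF+/+. Its sign is not settled, since leaving out TNF+/+ array 4 gave 0.044 and leaving out TNF+/+ array 1 gave -0.044. The mean of the 29 small-subunit genes was 6.87, 6.84, 6.94 and 6.96 in the TNF-/- arrays, against 6.80, 6.89, 6.97 and 7.07 in the TNF+/+ arrays, a difference of -0.029 ± 0.064 (SE). With the median level over the 29 genes in each array in place of the mean, the difference was -0.15 ± 0.10 (SE). The SD between arrays was 0.106 for TNF-/- and 0.177 for TNF+/+. The groups overlap, and without TNF+/+ arrays 3 and 4 the difference was -0.011. This median fell on different genes in different arrays, such as Mrps31 in TNF-/- array 1 and Mrps17 in TNF+/+ array 4. It thus compares levels of different probe sets, and the median of the per-gene differences was -0.02. In both subunits the TNF+/+ arrays held the lowest and the highest of the 8 means, so the TNF-/- values lay inside the TNF+/+ range. In bulk brain RNA, fewer cells of a type and less RNA per cell cannot be told apart.

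**Figure D1:**
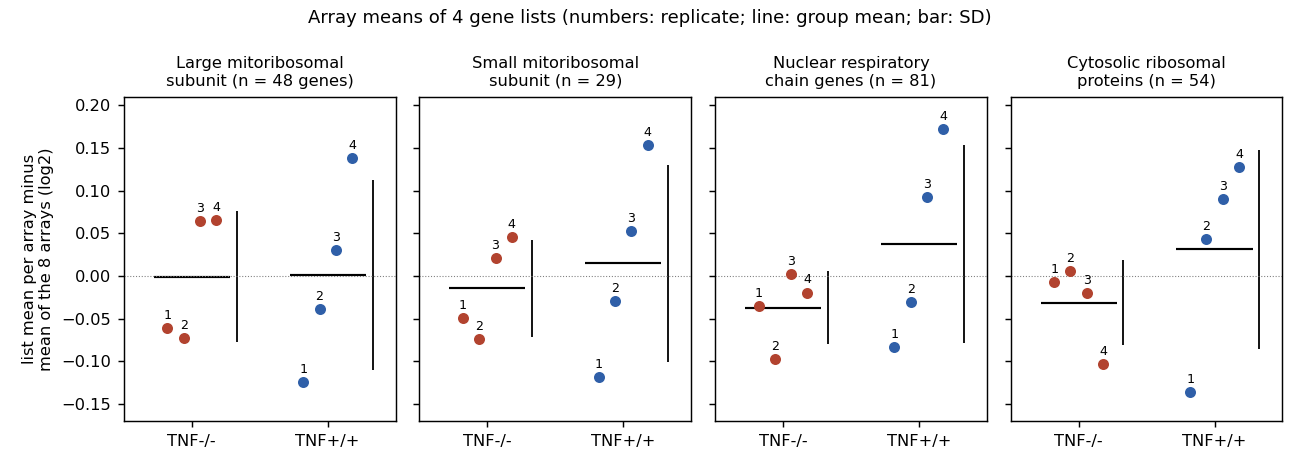
Mean log2 signal of 4 gene lists in each array, as the deviation from that list's mean over the 8 arrays; points are arrays numbered by replicate, lines are group means and bars are the SD (n = 4). For both mitoribosomal subunits TNF+/+ array 4 is highest and TNF+/+ array 1 lowest, and the TNF-/- arrays lie between them.

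The offset between the subunits moved less from array to array than either subunit did. The large-subunit mean exceeded the small-subunit mean by 0.143, 0.156, 0.199 and 0.175 in the TNF-/- arrays, against 0.148, 0.145, 0.133 and 0.140 in the TNF+/+ arrays. Only TNF-/- array 1 lay within the TNF+/+ range, and the difference of 0.027 ± 0.013 (SE) got no test, as a score over chosen genes. Part of it turned on which genes count as small subunit: Mrps18a and Mrps30, named for the small subunit but known to sit in the large one, and Mrps36, known as a component of the 2-oxoglutarate dehydrogenase complex, all had negative differences in the reported fit. With the first pair counted as large and Mrps36 left out, the difference was 0.013. The small-subunit mean also holds Mrps34, at -0.54 the lowest difference of the 77 genes, beside a median of -0.02 over the 29 small-subunit genes. The offset without Mrps34 was not computed, so it is not shown to be a shift of the whole subunit. With the median level over genes in each array in place of the mean, the difference of the offset was 0.15 ± 0.07 (SE). The groups overlap, at 0.174 to 0.392 in the TNF-/- arrays and 0.026 to 0.268 in the TNF+/+ arrays. These medians fell on different genes in different arrays, so they compare levels of different probe sets.

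Gene by gene the signs were mixed. Of the large-subunit genes 25 of 48 were lower in the TNF-/- arrays, with a median difference of -0.01, and of the small-subunit genes 16 of 29, with a median of -0.02. That is 53.2% of the 77, beside 52.2% of all 19938 genes (median -0.0061) and 35.6% of the 10674 genes brighter than the median probe set (median 0.05), the class to which 71 of the 77 belong. Scaling shifted this split. After quantile normalization 30 of 48 and 22 of 29 were lower, 67.5% of the 77, against 48.4% of all genes and 44.7% of the brighter ones. After centring each array on its median 61.0% of the 77 were lower, against 58.6% of all genes and 41.3% of the brighter ones. Without TNF+/+ arrays 3 and 4 only 10 of 48 and 6 of 29 were lower, and the differences of the subunit means became 0.081 and 0.059. In that setting 20.8% of the 77 were lower, against 47.3% of all genes and 33.3% of the brighter ones.

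No mitoribosomal gene passed the test: limma called 0 of 77 at an adjusted p under 0.05, the lowest being 0.110, beside 0.0816% of all probe sets and 0.0502% of all genes called, and SAM, the test named in the design text, also called 0 of 77. At an unadjusted p under 0.05 there were 4 lower (Mrps34, Mrpl55, Mrps14 and Mrpl24), beside 4.28% of all genes and 3.29% of the brighter ones, and 2 higher (Mrpl1 and Mrpl22), beside 7.37% of all genes and 12.3% of the brighter ones. The 4 TNF-/- arrays lay wholly below the 4 TNF+/+ arrays for 2 genes, Mrps34 and Mrpl24, beside 3.50% of all genes and 2.03% of the brighter ones, and wholly above for 1, Mrpl22, beside 4.16% and 6.78%. Differences larger than 0.25 in either direction were found for 3 of the 77 (3.90%), beside 6.09% of all genes and 9.57% of the brighter ones. The median SE of the 77 was 0.094.

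The genes followed particular arrays more than the label. TNF+/+ array 4 gave the highest of the 8 signals for 35 of the 77 genes (45.5%; 17.2% of all genes and 19.0% of the brighter ones), 21 of the large and 14 of the small subunit. TNF+/+ array 1 gave the lowest signal for 24 of the 77 (31.2%, beside 14.7% of all genes and 18.1% of the brighter ones). The pattern is not particular to these genes. TNF+/+ array 4 was highest for 60.5% of nuclear respiratory chain genes and 40.7% of cytosolic ribosomal protein genes, and TNF+/+ array 1 lowest for 29.6% and 37.0%. TNF-/- array 4 was highest for 18 genes, TNF-/- array 3 for 10, and TNF+/+ array 2 for 0. The array with the most lowest signals is the one with the cerebellar granule cell markers, and the one with the most highest signals had the largest score, 37.22, on the first principal component; the part of either in these values was not tested.

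**Figure D2:**
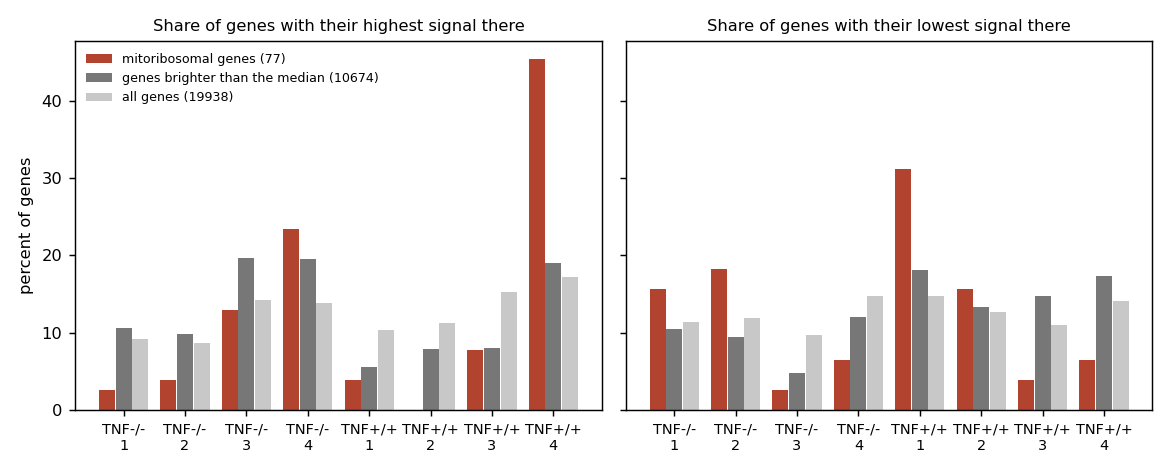
Share of genes, in percent, whose highest (left) or lowest (right) signal of the 8 fell in each array, for the mitoribosomal genes, for genes brighter than the median probe set and for all genes. TNF+/+ array 4 holds 45.5% of the highest and TNF+/+ array 1 holds 31.2% of the lowest mitoribosomal signals.

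Promoter letters of the mitoribosomal genes were read for motifs of factors known to act on nuclear genes for mitochondrial proteins, and for the common promoter motifs TATAAA and CCAAT. RefSeq windows of GRCm38.p6, which reach from upstream of each gene's start into its first bases, were at hand for 68 of the 77 genes. The ETS motif CCGGAAG, which the nuclear respiratory factor GABP (also called NRF-2) recognises, was found in 36.8% of the 68, beside 12.9% of the 17492 protein-coding genes with a window. AAGATGGC, a motif of the zinc finger factor YY1, was found in 17.6% beside 3.57%, and GCATGCGC, the core of the motif of nuclear respiratory factor 1, in 11.8% beside 3.94%. TATAAA was found in 7.35% beside 14.8%, and CCAAT in 38.2% beside 42.3%. Each motif was searched on both strands, and no match of the first 3 overlapped another of them in these genes. At least one of those 3 was found in 37 of the 68 genes (54.4%), beside 18.7% of protein-coding genes. The windows also differ in composition. Those of the 68 genes had a median of 21 CG pairs and 58.5% G and C, against 13 and 56.3% in protein-coding genes. CCGGAAG and GCATGCGC each hold a CG and TATAAA holds only A and T. The part of composition in these shares was not tested. The difference between the labels had a median of 0.0046 in the 25 genes with the ETS motif and -0.03 in the 43 without, and of 0.04 in the 8 with the NRF1 core and -0.03 in the 60 without. For the YY1 motif the medians were -0.01 in the 12 with it and -0.02 in the 56 without, and none of these gaps was tested. A match is a description of letters, not a site.

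Windows are printed for the large-subunit genes with the highest and the lowest difference (Mrpl22 and Mrpl55), for a small-subunit gene at the lower end (Mrps14) and one at the upper end (Mrps27), and for Mrps18b, the member nearest to Tnf on chromosome 17. They run 5′ to 3′ along the gene, with ETS, YY1 and NRF1 core matches on either strand in capitals. Mrpl22 holds an ETS and an NRF1 core match, Mrps27 an ETS and a YY1 match, Mrps18b 2 NRF1 core matches and an ETS match, and Mrpl55 and Mrps14 none of the 3.
Mrpl22, chr11:58171414-58171713, plus strand: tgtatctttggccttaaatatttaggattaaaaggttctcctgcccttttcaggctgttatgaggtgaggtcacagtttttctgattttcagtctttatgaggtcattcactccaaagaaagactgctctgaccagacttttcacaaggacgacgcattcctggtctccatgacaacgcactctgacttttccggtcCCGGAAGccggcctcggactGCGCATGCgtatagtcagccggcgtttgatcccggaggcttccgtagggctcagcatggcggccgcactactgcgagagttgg
Mrpl55, chr11:59202236-59202535, plus strand: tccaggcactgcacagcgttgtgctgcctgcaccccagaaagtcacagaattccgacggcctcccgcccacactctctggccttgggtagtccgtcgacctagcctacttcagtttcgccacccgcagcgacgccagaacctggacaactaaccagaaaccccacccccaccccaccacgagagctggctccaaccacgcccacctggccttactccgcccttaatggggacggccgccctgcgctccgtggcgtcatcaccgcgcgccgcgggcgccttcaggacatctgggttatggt
Mrps14, chr1:160194965-160195264, plus strand: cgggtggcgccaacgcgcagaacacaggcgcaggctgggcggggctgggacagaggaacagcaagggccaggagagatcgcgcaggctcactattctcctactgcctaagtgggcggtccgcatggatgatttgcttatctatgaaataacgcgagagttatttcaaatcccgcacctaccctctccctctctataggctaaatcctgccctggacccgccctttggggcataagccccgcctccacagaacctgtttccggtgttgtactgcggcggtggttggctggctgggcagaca
Mrps27, chr13:99344536-99344835, plus strand: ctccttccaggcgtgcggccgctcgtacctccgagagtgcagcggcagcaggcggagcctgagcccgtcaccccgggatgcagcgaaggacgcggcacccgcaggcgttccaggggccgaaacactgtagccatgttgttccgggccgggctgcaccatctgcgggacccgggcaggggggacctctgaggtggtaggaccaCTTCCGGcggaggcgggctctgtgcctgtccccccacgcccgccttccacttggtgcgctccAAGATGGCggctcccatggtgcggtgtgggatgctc
Mrps18b, chr17:35916391-35916690, minus strand: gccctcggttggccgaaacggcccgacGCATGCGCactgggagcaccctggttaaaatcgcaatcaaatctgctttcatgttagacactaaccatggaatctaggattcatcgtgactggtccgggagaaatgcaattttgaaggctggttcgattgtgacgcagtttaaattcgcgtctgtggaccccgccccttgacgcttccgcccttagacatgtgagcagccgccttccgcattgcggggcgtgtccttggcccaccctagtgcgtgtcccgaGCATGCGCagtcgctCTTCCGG

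Among large-subunit proteins that line the exit tunnel or the peptidyl transferase region, differences ran in both directions. Mrpl22, a tunnel protein, had 5.18, 4.93, 5.20 and 5.31 in the TNF-/- arrays, against 4.48, 4.88, 4.92 and 4.93 in the TNF+/+ arrays, a difference of 0.35 ± 0.12 (SE; limma, adjusted p = 0.372; exact permutation p = 0.0286). The groups did not overlap, but TNF-/- array 2 and TNF+/+ array 4 agree to 2 decimals, the probe set is dimmer than the median one, and without TNF+/+ array 1 the difference was 0.25. Mrpl24, which sits near the tunnel's mouth, had 7.97, 8.03, 8.11 and 8.04 in the TNF-/- arrays, against 8.13, 8.18, 8.13 and 8.29 in the TNF+/+ arrays. Its groups did not overlap either, by a margin of 0.012 between TNF-/- array 3 and TNF+/+ array 1, and the difference was -0.14 ± 0.06 (limma, adjusted p = 0.453). Mrpl4, whose extension reaches into the tunnel, had 6.81, 6.73, 6.99 and 6.95 in the TNF-/- arrays, against 6.74, 6.79, 6.96 and 7.67 in the TNF+/+ arrays. A single array, TNF+/+ array 4, carried its difference of -0.17 ± 0.19, which was 0.04 without it. Mrpl45, which tethers the ribosome to the inner membrane, differed by 0.18 ± 0.09, or 0.10 without TNF+/+ array 1 and 0.32 without TNF+/+ arrays 3 and 4. Mrpl2, a core protein of the peptidyl transferase region, differed by -0.18 ± 0.09, or -0.12 without TNF+/+ array 4 and -0.05 without TNF+/+ arrays 3 and 4, and Mrpl3, of the same region, by 0.08 ± 0.09, or 0.02 without TNF-/- array 4 and 0.16 without TNF-/- array 1.

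The stalk proteins also split. Mrpl12, the stalk protein that contacts translation factors and is also known to bind the mitochondrial RNA polymerase, had 6.15, 5.98, 6.10 and 5.95 in the TNF-/- arrays, against 6.16, 5.96, 6.38 and 6.63 in the TNF+/+ arrays. TNF+/+ arrays 1 and 2 lay among the TNF-/- arrays, and the difference of -0.23 ± 0.13 (SE; limma, adjusted p = 0.560) was -0.12 without TNF+/+ array 4 and -0.01 without TNF+/+ arrays 3 and 4. Mrpl10, the base to which Mrpl12 binds, differed by -0.11 ± 0.14 and by 0.14 without those 2 arrays. Mrpl1, of the other stalk, which guides spent transfer RNA out of the ribosome, had 7.15, 7.33, 7.36 and 7.38 in the TNF-/- arrays, against 7.07, 7.18, 7.09 and 6.99 in the TNF+/+ arrays. TNF-/- array 1 lay just below TNF+/+ array 2, the other TNF-/- arrays lay above all TNF+/+ arrays, and the difference was 0.22 ± 0.07 (limma, adjusted p = 0.351; 0.19 to 0.27 with any 1 array left out).

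**Figure D3:**
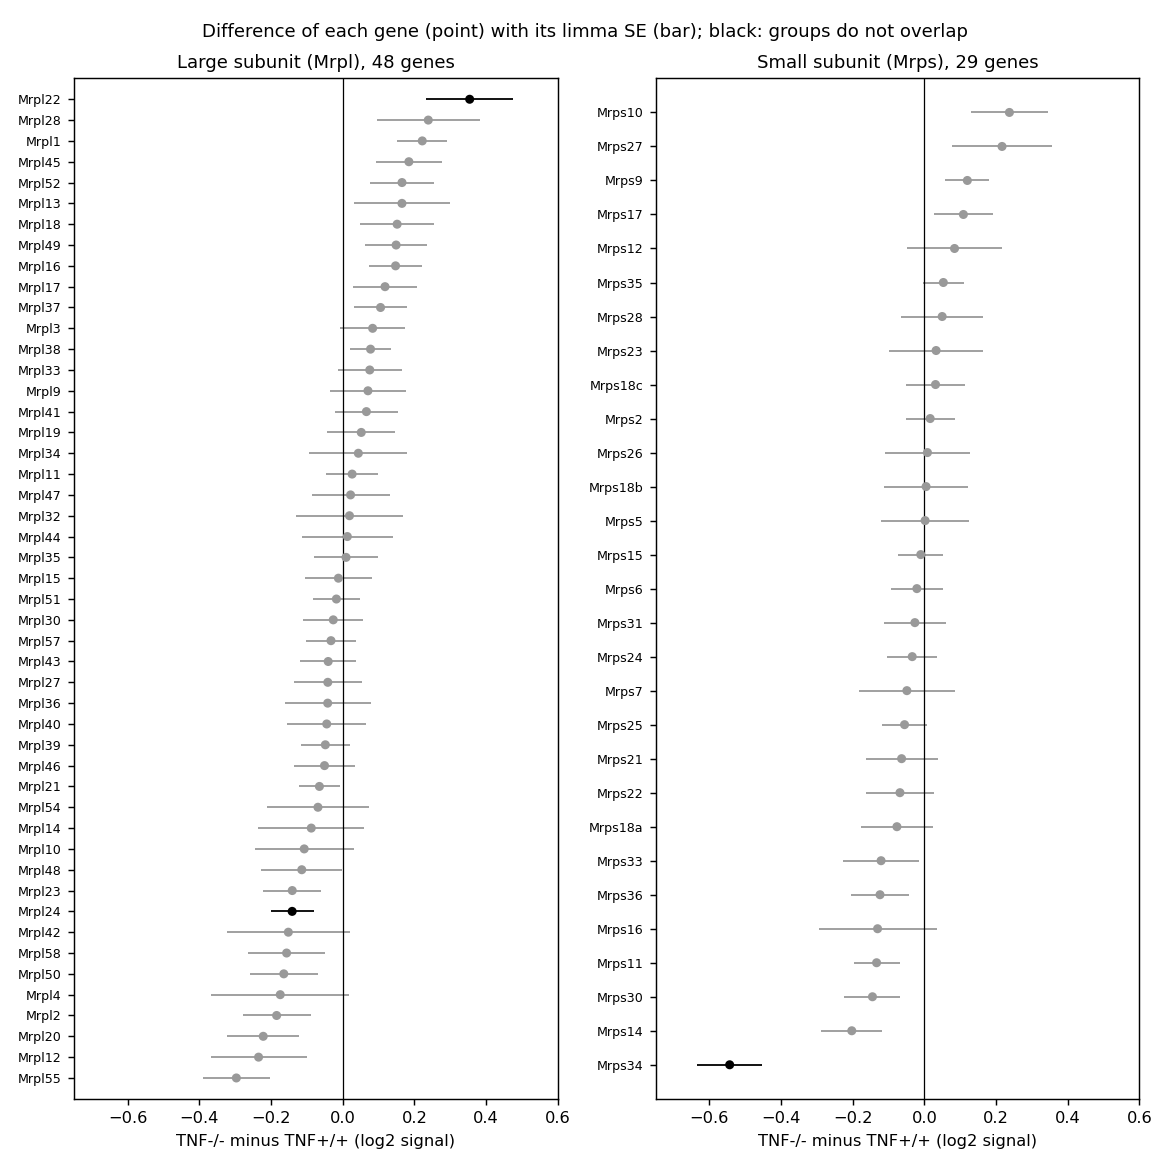
Difference of every mitoribosomal gene (TNF-/- minus TNF+/+, log2 signal; point) with its limma SE (bar), large subunit left and small subunit right, ordered by difference. Most bars cross 0, and Mrps34 at -0.54 lies furthest from the rest; black marks the 3 genes whose groups do not overlap.

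Of the large-subunit proteins at the surface or particular to mitochondria, Mrpl55, found in animal mitoribosomes, had the lowest difference of the subunit. Its signal was 6.47, 6.82, 6.46 and 6.52 in the TNF-/- arrays, against 6.81, 6.89, 6.99 and 6.76 in the TNF+/+ arrays. TNF-/- array 2 fell among the TNF+/+ arrays and the other TNF-/- arrays below them, and the difference was -0.30 ± 0.09 (SE; limma, adjusted p = 0.348), or -0.38 without TNF-/- array 2. Mrpl20, an RNA-binding protein needed for assembly of the bacterial large subunit, had 6.04, 5.86, 6.25 and 6.11 in the TNF-/- arrays, against 6.12, 6.22, 6.41 and 6.40 in the TNF+/+ arrays, a difference of -0.22 ± 0.10 that was -0.10 without TNF+/+ arrays 3 and 4. Mrpl28 had 5.26, 5.17, 5.29 and 4.97 in the TNF-/- arrays, against 4.79, 4.59, 5.23 and 5.12 in the TNF+/+ arrays. Its difference of 0.24 ± 0.14 came from TNF+/+ arrays 1 and 2, the lowest pair, and was 0.12 without array 2 of the TNF+/+ group and 0.48 without TNF+/+ arrays 3 and 4. Mrpl52, a protein with no bacterial counterpart, differed by 0.17 ± 0.09, or 0.10 without TNF+/+ array 1 and 0.27 without TNF+/+ arrays 3 and 4. Mrpl58, a peptidyl-tRNA hydrolase that frees stalled chains and is built into the ribosome, differed by -0.16 ± 0.11, with a range of -0.26 to 0.0011 over 16 settings, and Mrpl44, a relative of ribonuclease III whose mutation causes cardiomyopathy in humans, by 0.01 ± 0.13.

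**Figure D4:**
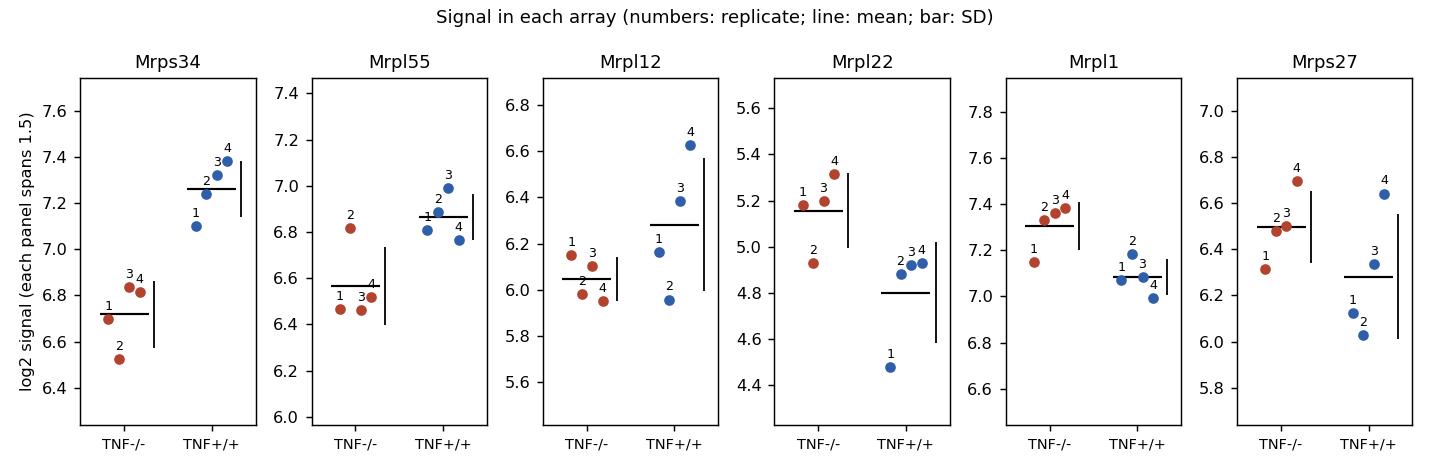
Log2 signal of 6 genes in each array, TNF-/- left and TNF+/+ right; points are arrays numbered by replicate, lines are means, bars are the SD (n = 4), and every panel spans the same range. Mrps34 separates the groups with a gap of 0.26, while Mrpl12 and Mrps27 have TNF+/+ arrays 1 and 2 apart from arrays 3 and 4.

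In the small subunit Mrps34 stood furthest from 0. It encodes a protein with no bacterial counterpart that is needed for the stability of the small ribosomal RNA, and its mutation causes Leigh syndrome in humans. Its signal was 6.70, 6.52, 6.84 and 6.81 in the TNF-/- arrays, against 7.10, 7.24, 7.32 and 7.38 in the TNF+/+ arrays. Every TNF-/- array lay below every TNF+/+ array, and the difference was -0.54 ± 0.09 (SE; 95% interval -0.75 to -0.34), or 1.46-fold higher in TNF+/+. It did not pass (limma, adjusted p = 0.110; exact permutation p = 0.0286) and ranked 37th of 19938 genes by p. Its difference ran from -0.60 to -0.45 over 16 settings and its adjusted p from 0.0376 to 0.371. It passed in a single one of them, where only probe sets with 1 symbol were tested.

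The other small-subunit genes at the lower end were closer to 0. Mrps14, of the subunit's head, had 6.93, 6.94, 7.06 and 7.04 in the TNF-/- arrays, against 7.04, 7.22, 7.11 and 7.41 in the TNF+/+ arrays, which overlap at TNF+/+ array 1. The difference was -0.20 ± 0.09 (SE; limma, adjusted p = 0.448), or -0.13 without TNF+/+ array 4. Mrps11, of the subunit's platform, differed by -0.13 ± 0.06, and Mrps30 by -0.15 ± 0.08. Mrps16, an RNA-binding protein whose mutation causes a fatal infantile disorder in humans, had 5.25, 5.31, 5.29 and 5.26 in the TNF-/- arrays, against 4.99, 5.38, 5.37 and 5.91 in the TNF+/+ arrays. The TNF-/- arrays lay within 0.055 of each other inside a wide TNF+/+ range, and the difference of -0.13 ± 0.16 became 0.03 without TNF+/+ array 4. Mrps22, mutated in human cardiomyopathy and ovarian failure, differed by -0.07 ± 0.09 (-0.13 to -0.01 with any 1 array left out), and Mrps36 by -0.12 ± 0.08, or -0.07 without TNF+/+ array 4 and 0.0021 without TNF+/+ arrays 3 and 4.

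At the upper end of the small subunit were Mrps10 and Mrps27. Mrps10, of the head, had 5.02, 5.16, 5.03 and 5.40 in the TNF-/- arrays, against 5.06, 5.03, 4.75 and 4.82 in the TNF+/+ arrays. The groups overlap through TNF+/+ arrays 1 and 2, and the difference was 0.24 ± 0.11 (SE; limma, adjusted p = 0.479), or 0.16 without TNF-/- array 4 and 0.11 without TNF+/+ arrays 3 and 4. Mrps27, an RNA-binding protein of the pentatricopeptide repeat family, had 6.32, 6.48, 6.50 and 6.70 in the TNF-/- arrays, against 6.12, 6.03, 6.33 and 6.64 in the TNF+/+ arrays. TNF+/+ array 4 exceeded all TNF-/- arrays but one, and the difference of 0.22 ± 0.14 was 0.13 without TNF+/+ array 2 and 0.34 without TNF+/+ array 4. Mrps9 and Mrps17, RNA-binding proteins with bacterial counterparts, differed by 0.12 ± 0.06 and 0.11 ± 0.08; the value of Mrps17 was 0.05 without TNF-/- array 4 and 0.17 without TNF-/- array 1. Mrps12, the decoding protein whose bacterial counterpart is the target of streptomycin resistance mutations, differed by 0.08 ± 0.13, or -0.06 without TNF+/+ array 1. Mrps2 differed by 0.02 ± 0.07 and, after quantile normalization, by -0.03.

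The 3 relatives of a single bacterial small-subunit protein, Mrps18a, Mrps18b and Mrps18c, all lay close to 0. Their differences were -0.08 ± 0.10, 0.0046 ± 0.12 and 0.03 ± 0.08 (SE), and the sign of the last pair turned after quantile normalization, while that of Mrps18a ran from -0.16 to -0.01 with any 1 array left out. Each of 8 mitoribosomal genes had a second probe set, and the 2 differed in sign for 3 genes: -0.04 and 0.07 for Mrpl27, 0.02 and -0.05 for Mrpl47, and 0.0019 and -0.08 for Mrps5. The second probe set of Mrpl47 is dim, with a mean of 3.59 beside 5.08 for the median probe set, so its sign says little.

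Tnf lies on chromosome 17, and 8 of the 77 genes lie there too. Of these 4 were lower (Mrps34, Mrpl14, Mrps18a and Mrpl2) and 4 higher (Mrpl18, Mrpl28, Mrps18b and Mrps10) in the TNF-/- arrays. The nearest in gene order, Mrps18b, lies 29 measured genes from Tnf and had 7.98, 7.86, 8.10 and 8.30 in the TNF-/- arrays, against 7.79, 8.10, 8.16 and 8.17 in the TNF+/+ arrays, which overlap. Mrpl14 differed by -0.09 ± 0.15 (SE) and Mrpl18 by 0.15 ± 0.10, or 0.08 without TNF-/- array 4. Mrps34 lies 277 measured genes from Tnf. Its neighbours on either side were Spsb3, at -0.22 ± 0.10 (limma, adjusted p = 0.459), and Nme3, which encodes a nucleoside diphosphate kinase, at 0.31 ± 0.10 (adjusted p = 0.351). The signal of Nme3 was 6.53, 6.52, 6.70 and 6.94 in the TNF-/- arrays, against 6.25, 6.39, 6.37 and 6.43 in the TNF+/+ arrays. Mrps34 was wholly lower and Nme3 wholly higher, beside 3.50% and 4.16% of all genes. Of the 5 measured genes on each side, Igfals, a dim probe set, was also wholly lower (-0.15 ± 0.06). Nubp2 differed by 0.37 ± 0.13 and Mapk8ip3 by 0.15 ± 0.06, both with overlap. Both of these, Igfals, Spsb3 and Nme3 had an unadjusted p under 0.05 (limma), and the other neighbours did not. Among all genes 4.28% were lower and 7.37% higher at that p. The neighbours were named after their values were seen.

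Genes that build or serve the mitoribosome were followed as lists, one for each role. Of the mitoribosomal proteins with other symbols 4 of 6 were measured, 2 lower and 2 higher: Dap3, the GTP-binding protein of the small subunit, was at -0.08 ± 0.05 (SE) with groups that did not overlap, and Ptcd3, of the same subunit, at 0.15 ± 0.10, or 0.07 without TNF-/- array 4. Of 24 assembly and RNA-modifying factors 10 were lower and 14 higher (median 0.04), with 0 called by limma, 6 higher at an unadjusted p under 0.05 (beside 7.37% of all genes and 12.3% of the brighter ones) and 5 wholly above the TNF+/+ arrays (beside 4.16% and 6.78%). Tfb1m, the dimethyltransferase of the small ribosomal RNA, had 6.40, 6.55, 6.64 and 6.35 in the TNF-/- arrays, against 5.72, 5.98, 5.95 and 6.08 in the TNF+/+ arrays. Its groups did not overlap, with a difference of 0.55 ± 0.10 (limma, adjusted p = 0.130; 0.0406 when only probe sets with 1 symbol were tested); like Tnf it lies on chromosome 17. Fastkd2, an RNA-binding protein of mitoribosome assembly, had 7.32, 7.58, 7.62 and 7.64 in the TNF-/- arrays, against 7.27, 7.31, 7.20 and 7.28 in the TNF+/+ arrays, also without overlap, a difference of 0.28 ± 0.08 (limma, adjusted p = 0.300).

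Translation factors gave 5 lower and 10 higher of 15 measured (median 0.04; 7 lower and 8 higher after quantile normalization). Mrrf, the ribosome recycling factor, had 7.71, 7.71, 7.90 and 7.79 in the TNF-/- arrays, against 7.41, 7.62, 7.49 and 7.69 in the TNF+/+ arrays, a difference of 0.23 ± 0.08 (SE; limma, adjusted p = 0.372) without overlap, while its partner Gfm2 was at 0.10 ± 0.06, or 0.07 without TNF+/+ array 3. Aminoacyl-tRNA synthetases that charge transfer RNA in mitochondria gave 9 lower and 12 higher of 21 (median 0.05). Gars, a glycyl-tRNA synthetase of both cytosol and mitochondria, had 9.62, 9.56, 9.47 and 9.65 in the TNF-/- arrays, against 9.83, 9.83, 9.88 and 10.03 in the TNF+/+ arrays. Iars2, the mitochondrial isoleucyl-tRNA synthetase, had 7.18, 7.35, 7.17 and 7.35 in the TNF-/- arrays, against 7.46, 7.59, 7.50 and 7.57 in the TNF+/+ arrays. Neither gene's groups overlapped, and the differences were -0.32 ± 0.07 and -0.27 ± 0.07 (limma, adjusted p = 0.209 and 0.252). Kars went the other way without overlap, at 0.20 ± 0.06 (limma, adjusted p = 0.323). Of the 21, 2 were wholly lower and 1 wholly higher, beside 3.50% and 4.16% of all genes. At an unadjusted p under 0.05 (limma) 3 were lower and 2 higher, beside 4.28% and 7.37% of all genes.

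Upkeep and transcription of mitochondrial DNA gave 4 lower and 9 higher of 13 (median 0.10), with Polg2, the accessory subunit of the DNA polymerase, at -0.16 ± 0.06 (SE) without overlap, and Tefm, an elongation factor, at 0.22 ± 0.11, or 0.14 without TNF-/- array 4. Of 10 nuclear regulators of mitochondrial gene expression 1 was lower and 9 higher (median 0.07). Of all genes brighter than the median probe set 64.4% were higher (median 0.05). The list means of the regulators were 6.60 to 6.67 in the TNF-/- arrays, against 6.46 to 6.58 in the TNF+/+ arrays. Their difference was 0.10 ± 0.03 (SE), or 0.05 without TNF+/+ arrays 3 and 4, and was not tested. Gabpb2, a subunit of the factor that binds the ETS motif, had 6.19, 6.39, 6.34 and 6.46 in the TNF-/- arrays, against 6.12, 6.10, 6.01 and 5.47 in the TNF+/+ arrays. Its difference was 0.42 ± 0.14 (limma, adjusted p = 0.374), or 0.27 without TNF+/+ array 4, whose value stood apart. Ppargc1a, the coactivator PGC-1alpha, was at 0.15 ± 0.10, or 0.10 without TNF-/- array 4 and 0.24 without TNF-/- array 1. None of the genes in these lists was called by limma over all probe sets.

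Cytosolic ribosomal proteins and respiratory chain subunits were set beside the mitoribosome, and limma called 0 of either list. Of 54 cytosolic ribosomal protein genes 39 were lower (median -0.08), with Rpl28 at -0.24 ± 0.09 (SE) and Rpl24 at -0.23 ± 0.09. Of 81 nuclear respiratory chain genes 64 were lower (median -0.07), with Cox6c, a subunit of cytochrome c oxidase, at -0.24 ± 0.06 and Uqcrfs1, the iron-sulphur protein of complex III, at -0.19 ± 0.05. The array means differed by -0.063 ± 0.063 for the cytosolic ribosome and by -0.075 ± 0.062 for the respiratory chain, close to 1 SE in each case. Without TNF+/+ arrays 3 and 4, 24 of the 54 and 37 of the 81 were lower and the differences were 0.015 and 0.019. As in the mitoribosomal lists, TNF+/+ array 4 had the highest mean of both, 8.89 and 8.64. No test of the difference between these lists and the mitoribosomal genes was made.

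Marker lists of cell types went in different directions. All 5 measured oligodendrocyte markers of 6 listed were lower, with list means of 9.65 to 9.77 in the TNF-/- arrays, against 9.73 to 10.03 in the TNF+/+ arrays, where array 4 was again highest; the difference of -0.23 was -0.12 without TNF+/+ arrays 3 and 4. All 4 choroid plexus markers (7.61 to 7.78 in TNF-/-, 7.39 to 7.71 in TNF+/+) and all 4 meningeal markers (5.94 to 6.11 in TNF-/-, 5.75 to 5.94 in TNF+/+) were higher, 3 of the choroid plexus 4 after quantile normalization or centring. Lower in the TNF-/- arrays were 3 of 5 astrocyte, 4 of 5 microglial, 2 of 4 endothelial, 2 of 7 neuronal, 5 of 6 cerebellar granule cell, 1 of 2 blood, 2 of 2 liver and 2 of 2 skeletal muscle markers. All 6 granule cell markers were highest in TNF+/+ array 1, where their mean was 7.89. Their mean was 6.02 to 6.15 in the other TNF+/+ arrays and 6.13 to 6.23 in the TNF-/- arrays. The part of cell composition in the mitoribosomal values was not tested.

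**Figure D5:**
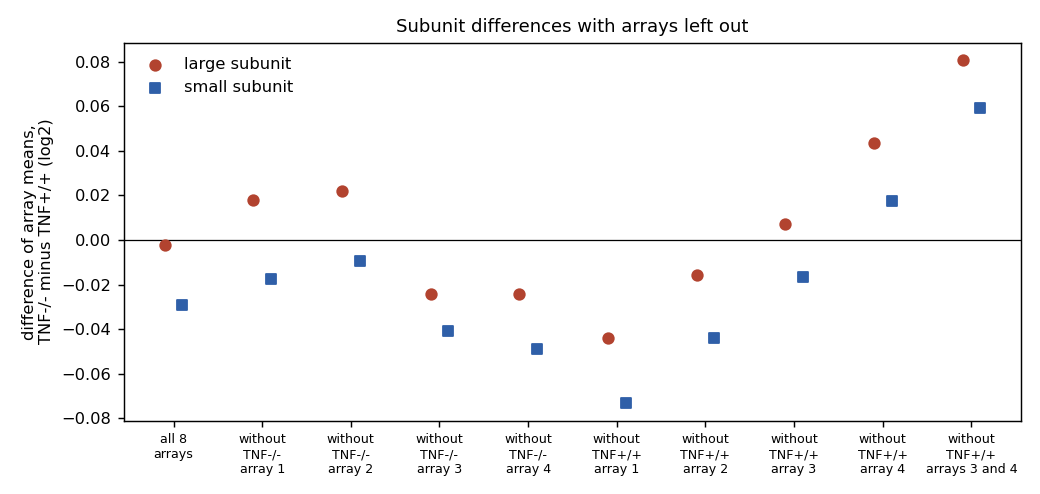
Difference of the subunit means (TNF-/- minus TNF+/+, log2 signal) with all 8 arrays, with each array left out and with TNF+/+ arrays 3 and 4 left out; circles are the large and squares the small subunit. The large-subunit value lies between -0.044 and 0.081 and the small-subunit value between -0.073 and 0.059, on both sides of 0.

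Leaving out single arrays moved the subunit differences across 0. With 1 array left out the large-subunit difference ran from -0.044 to 0.044 and the small-subunit difference from -0.073 to 0.017, each lowest without TNF+/+ array 1 and highest without TNF+/+ array 4. The offset between the subunits kept its sign in these cases, from 0.017 to 0.035. These cases left out arrays, not genes. With Mrps18a and Mrps30 counted as large and Mrps36 left out the offset was 0.013, and without Mrps34 it was not computed.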

How the data were processed

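RNA of 8 brain lysates was measured, 1 array each. The values are log2 signals deposited by the authors for 35556 probe sets; the log2 scale follows from the values, 2.83 to 14.1. Per the submitters' processing notes GCOS, GCRMA and Partek were used, with no version or role stated; a genome build was not given in the sources used here. Sample titles gave group and replicate, and 0 columns were left unused. Values were used as deposited, with no filter, and 4 arrays per group limit the precision. A limma p-value sets a difference against the spread between these arrays of the same label, and does not cover other cohorts of mice.

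Gene names are those of the platform annotation (of the probe sets, 21789 pair with 1 symbol, 1621 with several, 12146 are not listed). All 77 mitoribosomal genes matched RefSeq's GRCm38.p6 table, used for names, gene order and promoter windows. Genotypes were compared in R 4.3.3 by limma 3.58.1 (lmFit, eBayes, two-sided), with Benjamini-Hochberg adjustment across the 35556 probe sets and a threshold of 0.05 for the adjusted p. Differences are arrays labelled TNF-/- minus TNF+/+; SEs of genes are limma's, SEs of list means are over arrays. SAM was rebuilt with all 70 assignments of the arrays (false discovery rate 4.49%). Figures were made in Python 3.11.15 with matplotlib 3.10.9.

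The genes and lists were chosen with earlier results of these data known. Named were, by rule, Tnf; members past the threshold or whose groups do not overlap; the 5 highest and 5 lowest differences per subunit; members on Tnf's chromosome; 14 members of interest; members whose probe sets differ in sign; and 2 genes of lowest p in each other list outside the cell markers. Neighbours of Mrps34 were named after their values were seen. Alternatives were another variance model, array weights, scaling, filters, probe set and member choices, SAM, the replicate number as a block, and arrays left out; the regrouping of members, the omission of members with several probe sets or pseudogenes, and the settings run on the other lists were chosen after seeing the data. The limma test was tried on simulated data. Same-numbered samples correlated in their deviations from the group means at 0.067, 0.112, 0.097 and 0.074. No values of unlike-numbered samples were set beside these, so they do not show whether the numbers pair the samples. The reported fit takes the samples as unpaired, with the replicate block as an alternative.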

Additional observations from a re-analysis of the deposited data

Results flagged for a closer look

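One array of 4 lay far from the rest by Dixon's criterion in 7 of 110 groups of 4 tested, and chance flags about 1 in 20 groups, or about 6 here. In the TNF-/- arrays these were Mrpl55 in array 2 (6.82, the others 6.46 to 6.52), Mrps5 in array 2 (7.01, the others 7.22 to 7.27) and Gfm2 in array 1 (6.94, the others 7.06 to 7.08). In the TNF+/+ arrays they were Mrpl22 (4.48, the others 4.88 to 4.93), Mrpl3 (8.52, the others 8.64 to 8.65) and Mrps12 (4.62, the others 5.13 to 5.21) in array 1, and Gabpb2 (5.47, the others 6.01 to 6.12) in array 4. Of the 4 values from TNF+/+ arrays, 3 are low values of array 1, the array with the cerebellar granule cell markers; whether these go together was not tested.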

How the results depend on the processing

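Limma called 0 of the 77 genes in every setting run but one: with only probe sets of 1 symbol tested it called 1, Mrps34 (-0.54, adjusted p = 0.0376), and Tfb1m also passed (0.55, adjusted p = 0.0406). Over all probe sets the 29 calls became 63 in that setting, 53 by SAM, 51 at an adjusted p under 0.1, 1 to 20 with 1 array left out, and 0 both with the replicate number as a block (4025 at an unadjusted p under 0.05) and when TNF+/+ arrays 3 and 4 were left out (3566). Tnf kept its difference, 1.39 with the replicate block (adjusted p = 0.129), 1.21 without TNF+/+ arrays 3 and 4 (0.216) and 1.29 to 1.52 with 1 array left out (0.0321 to 0.114). At an unadjusted p under 0.05 (limma) the 77 genes gave 6 (4 lower) in the reported fit, beside 3845 (1741 lower) of all 35556 probe sets. They gave 10 (8 lower) after quantile normalization, beside 3415 of all probe sets, and 3 to 9 in the other settings. The 3 came from the fit limited to probe sets brighter than the median, which holds 71 of the 77 and gave 2180 probe sets. The block left the subunit differences as they were. With the median over genes in place of the mean, the small-subunit difference was -0.15 and that of the offset 0.15, from medians that fell on different genes in different arrays. Without TNF+/+ arrays 3 and 4, 10 large-subunit and 6 small-subunit genes were lower, 20.8% of the 77 beside 47.3% of all genes. The cause of these shifts was not tested.

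Of 52 named genes 37 kept their sign in all settings run and 15 did not. Without TNF+/+ arrays 3 and 4 the sign turned for Mrpl10 (0.14), Mrpl14 (0.088), Mrpl27 (0.079), Mrpl4 (0.10), Mrpl58 (0.0011), Mrps16 (0.098), Mrps18a (0.083) and Mrps36 (0.0021). Quantile normalization turned Mrpl44 (-0.030), Mrpl47 (-0.017), Mrps18b (-0.035), Mrps18c (-0.0037), Mrps2 (-0.026) and Mrps5 (-0.035), and centring on medians turned Mrpl44 (-0.0056), Mrps18b (-0.014), Mrps2 (-0.0025) and Mrps5 (-0.017). With 1 array left out the ranges that cross 0 were -0.23 to 0.0097 for Mrpl10, -0.18 to 0.017 for Mrpl14, -0.11 to 0.013 for Mrpl27, -0.27 to 0.036 for Mrpl4, -0.056 to 0.087 for Mrpl44, -0.060 to 0.11 for Mrpl47, -0.056 to 0.14 for Mrps12, -0.27 to 0.035 for Mrps16, -0.084 to 0.070 for Mrps18b, -0.040 to 0.072 for Mrps18c, -0.032 to 0.046 for Mrps2 and -0.086 to 0.11 for Mrps5.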
